A study of Mus musculus with 24 samples.

Results

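The genes described are the mouse chemokines and their classical receptors: every gene symbol in the files that begins with Ccl, Cxcl, Ccr or Cxcr directly followed by a digit, or with Cx3c. The rule left out Cxcl12, Cxcr4 and Ccr2. It found 52 of 23879 symbols, of which 36 were ligands and 16 were receptors. Their transcript levels were read in polyA RNA of C57BL/6J mice, in 24 libraries that form 8 groups of 3 that were taken from the titles. The cells were bone marrow endothelial cells (BMEC) or bone marrow stroma (BMS). The groups were BMEC-In vivo and BMS-In vivo, labelled as in vivo material, and BMEC-Akt1 and BMS-Akt1, labelled in vitro and called BMEC culture and BMS culture here. A further 4 groups, also in vitro, carry CC+HSPC or CC-Alone in their titles, which are called with HSPC and alone here (BMEC-Akt1 CC+HSPC, BMEC-Akt1 CC-Alone, BMS-Akt1 CC+HSPC and BMS-Akt1 CC-Alone). HSPC are hematopoietic stem and progenitor cells. The titles of the cultured libraries all carry the name Akt1, a kinase of growth factor signalling, without saying what was done to it, and the in vivo titles do not. Akt1 itself had 433 to 469.9 FPKM in BMEC in vivo, against 1080 to 2337 FPKM in the cultured BMEC libraries. In BMS it had 234 to 284 FPKM in vivo, against 462 to 698 FPKM in the cultured libraries. Culture, that name and the way the cells were isolated therefore cannot be told apart in a comparison of in vivo with culture. Akt1 also had 1765 to 1866 FPKM in BMEC with HSPC, against 1091 to 1128 FPKM in BMEC alone. In BMS it had 462 to 520 FPKM with HSPC, against 615 to 649 FPKM alone. The study set out to isolate the arteriolar vessels and stroma that house blood stem cells.

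Chemokines are small secreted or membrane-bound proteins that direct the movement of leukocytes through G protein-coupled receptors. Endothelium and stroma of the marrow make ligands that retain, attract or release blood cells, while the classical receptors sit mainly on the blood cells themselves. Many ligands are low at rest and are induced by interferon, by NF-kB, the transcription factor downstream of inflammatory cytokines, or by the AP-1 factors of the Jun and Fos families.

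The 250 bases before the start site are shown for 6 ligands that were higher in vivo than in culture in at least 1 of the cell types, since motifs of the inducing factors can be looked for there. RefSeq promoter windows (build GRCm38.p6, not the build of the files) were found for 36 of the 52 genes. The windows of Cxcl9 (chr5:92328080-92328329), Cxcl10 (chr5:92348890-92349139), Cxcl14 (chr13:56296552-56296801) and Ccl19 (chr4:42756366-42756615) are on the minus strand, and those of Cxcl1 (chr5:90890995-90891244) and Cxcl2 (chr5:90903649-90903898) on the plus strand. Each is printed 5′ to 3′, and capitals mark matches, on either strand, to any of 4 motifs.
Cxcl9: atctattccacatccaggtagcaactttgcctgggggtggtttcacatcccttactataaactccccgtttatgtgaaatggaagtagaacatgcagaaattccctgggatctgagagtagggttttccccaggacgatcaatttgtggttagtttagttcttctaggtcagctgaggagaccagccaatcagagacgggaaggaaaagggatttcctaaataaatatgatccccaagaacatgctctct
Cxcl10: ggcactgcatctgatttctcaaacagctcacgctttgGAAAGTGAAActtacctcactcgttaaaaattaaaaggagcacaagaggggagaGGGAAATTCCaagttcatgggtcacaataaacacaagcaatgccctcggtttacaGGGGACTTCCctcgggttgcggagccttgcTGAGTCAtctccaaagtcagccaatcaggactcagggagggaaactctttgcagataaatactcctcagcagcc
Cxcl1: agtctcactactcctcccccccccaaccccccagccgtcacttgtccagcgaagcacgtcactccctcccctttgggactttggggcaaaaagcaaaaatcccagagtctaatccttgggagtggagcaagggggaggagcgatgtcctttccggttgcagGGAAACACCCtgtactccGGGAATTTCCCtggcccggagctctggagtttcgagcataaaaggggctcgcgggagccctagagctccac
Cxcl2: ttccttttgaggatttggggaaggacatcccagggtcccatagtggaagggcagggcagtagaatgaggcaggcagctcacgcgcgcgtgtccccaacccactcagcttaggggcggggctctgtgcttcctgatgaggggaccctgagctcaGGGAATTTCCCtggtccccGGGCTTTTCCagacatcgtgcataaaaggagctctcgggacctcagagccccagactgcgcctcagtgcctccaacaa
Cxcl14: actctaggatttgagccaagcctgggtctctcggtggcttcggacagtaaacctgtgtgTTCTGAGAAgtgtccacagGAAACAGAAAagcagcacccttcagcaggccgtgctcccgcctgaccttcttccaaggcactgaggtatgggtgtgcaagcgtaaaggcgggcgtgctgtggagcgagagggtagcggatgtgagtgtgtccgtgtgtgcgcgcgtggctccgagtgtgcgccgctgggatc
Ccl19: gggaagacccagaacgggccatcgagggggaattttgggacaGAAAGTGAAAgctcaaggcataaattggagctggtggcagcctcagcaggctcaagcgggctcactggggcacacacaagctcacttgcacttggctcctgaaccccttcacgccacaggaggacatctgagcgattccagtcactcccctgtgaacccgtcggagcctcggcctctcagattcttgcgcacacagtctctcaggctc

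The kB motif searched was GGG and TTCC with any 3 bases between them. It was found in 4.65% of 32851 promoter windows of this length and in 9 of the 36 chemokine and receptor genes, among them Cxcl10, Cxcl1 and Cxcl2. A gene was counted if any of its windows matched, so the counts of genes and the shares of windows are unlike measures. In Cxcl1 and Cxcl2 a match on one strand overlaps a match on the other, so they share a run of capitals. The interferon-response motif, GAAA and GAAA with any 2 bases between them, was in 2.98% of all windows and in Cxcl10, Cxcl14 and Ccl19. The AP-1 motif TGANTCA, where N is any base, was in 6.75% of all windows and in 6 of the 36 genes, of which Cxcl10 is shown. The interferon-gamma-activated motif TTCNNNGAA was in 7.02% of all windows and in 4 of the 36 genes, of which Cxcl14 is shown. No motif was matched in the Cxcl9 window, which says only that these letters are not in it. A match is a description of the letters and not evidence of binding.

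The deposited values were FPKM (fragments mapped to a transcript, scaled by its length and by the library's mapped fragments), so levels are per length. Library totals ran from 1421447 to 1808592 FPKM. No read counts were used and depth is unknown. The spread between 3 libraries is therefore the only measure of error, and nothing in the labels says whether those 3 came from separate cultures or animals. Some libraries stood apart. In BMS culture, replicate 1 correlated with the others at 0.954 and 0.958 across genes (Pearson's r of log2(FPKM + 1)), and the 3 pairs of BMEC culture libraries correlated at 0.962 to 0.972. In the 6 other groups every pair lay between 0.995 and 0.998, the lowest of them in BMS with HSPC for replicate 2. BMEC culture replicates 2 and 3 and BMS culture replicate 3 carried Xist at 1006 to 1249.8 FPKM with Y-linked genes at 0, whereas Xist was at most 2.35 FPKM in the other 21 libraries. The labelled cell types were checked against marker genes. The sum of 10 endothelial markers was between 10923 and 21619 FPKM in BMEC libraries, against 24.8 to 400.3 FPKM in BMS libraries. For 10 mesenchymal markers the sums were 3.40 to 327 FPKM in BMEC libraries, against 4524 to 89819 FPKM in BMS libraries, lowest in BMS culture. BMS culture replicate 1 stood apart here too, with 400.3 FPKM of endothelial markers against 45.8 and 65.9 FPKM in replicates 2 and 3. Its mesenchymal sum was 4524 FPKM, against 13048 and 10203 FPKM.

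Of the 52 genes, 11 were listed at 0 in all 24 libraries. They included the ligands Ccl1, Ccl20, Ccl22, Ccl26, Cxcl3 and Cxcl17 and the receptors Ccr1l1, Ccr4, Ccr6 and Ccr8. A further 21 were above 0 in some library but below 10 FPKM on average in every group. The other 20 had a group mean of at least 10 FPKM, and 19 of them were ligands. Only Ccr10, the receptor of the skin ligand Ccl27, reached that level among the receptors, and the highest value of any receptor in any library was 16.3 FPKM. The ligands ran far higher, with 11 at a group mean of at least 100 FPKM and a highest single value of 5029 FPKM.

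**Figure D1:**
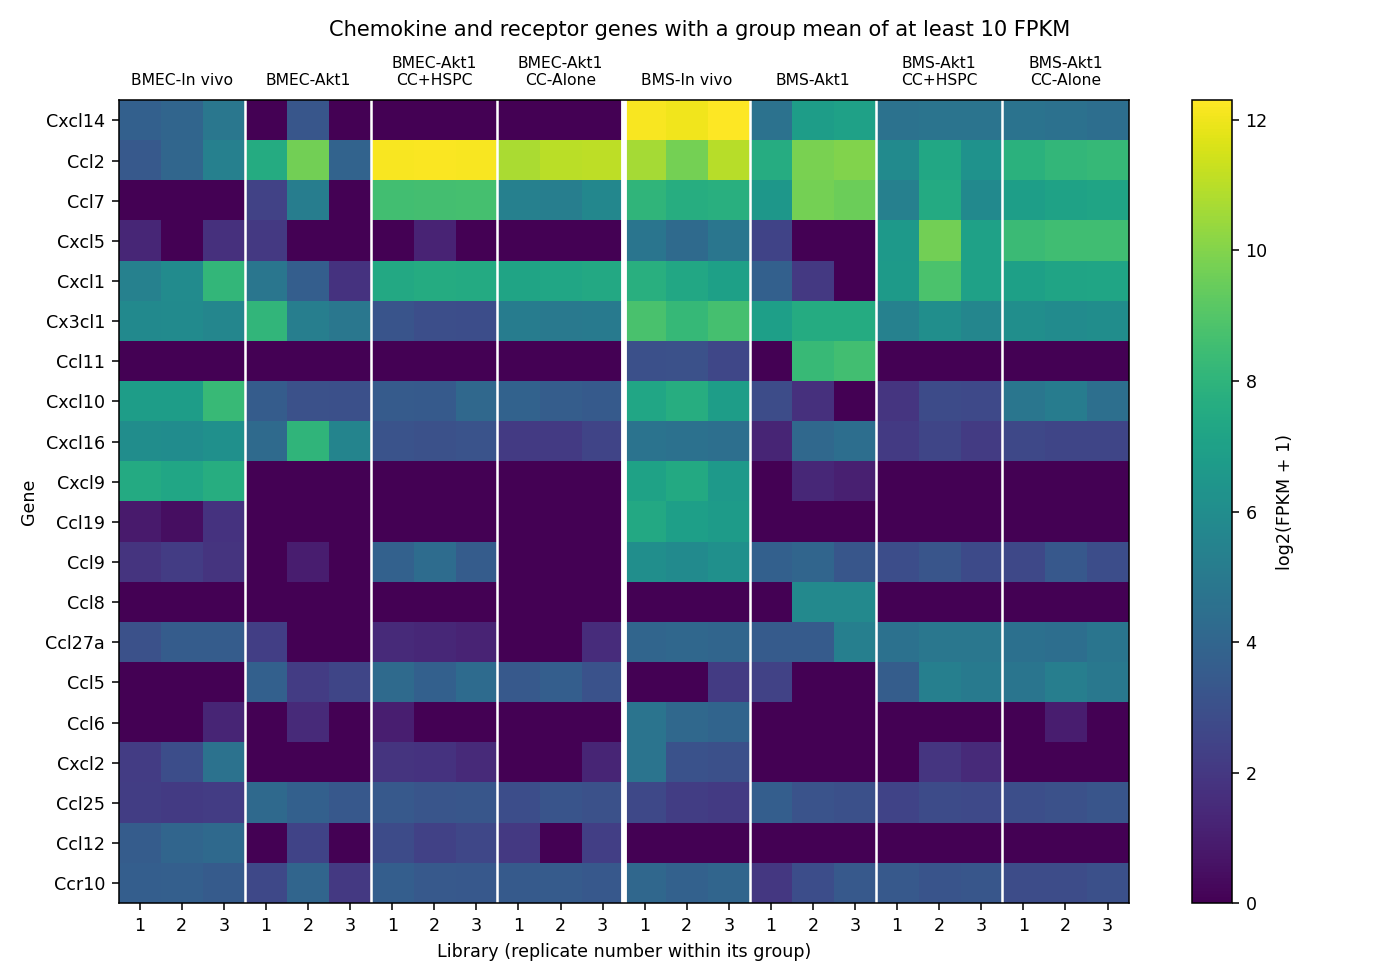
Level of the 20 genes with a group mean of at least 10 FPKM, as log2(FPKM + 1) by colour, in each of the 24 libraries (columns, grouped by title) with genes as rows. Cxcl14 was highest in BMS in vivo, Ccl2 in BMEC with HSPC, and Cxcl9 was near 0 outside the 6 in vivo libraries.

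The summed level of all 36 ligands differed widely between groups, and so did the ligand that led. It was 518, 534 and 1062 FPKM in BMEC in vivo, led by the interferon-induced Cxcl9 or Cxcl10. BMS in vivo had 7774, 6359 and 8315 FPKM, of which Cxcl14 alone made up 59% to 65.6%. The BMEC in vivo sums were thus all lower than the BMS in vivo sums, and BMEC replicate 3 was higher than the other two.

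In BMEC with HSPC the ligand sum was 5213, 5389 and 5348 FPKM, against 1993, 2318 and 2475 FPKM in BMEC alone. Ccl2, which attracts monocytes, made up 87.5% to 87.9% with HSPC and 86.4% to 88.4% alone. In BMS with HSPC the sum was 421, 1802 and 553 FPKM, against 991, 1126 and 1154 FPKM in BMS alone, so replicate 2 with HSPC lay above and the other two below all 3 libraries alone. BMEC culture libraries had 557, 1208 and 112 FPKM with a different leading ligand in each (Cx3cl1, Ccl2 and Cxcl16). BMS culture libraries had 496, 2469.5 and 2563 FPKM, led each time by Ccl2.

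**Figure D2:**
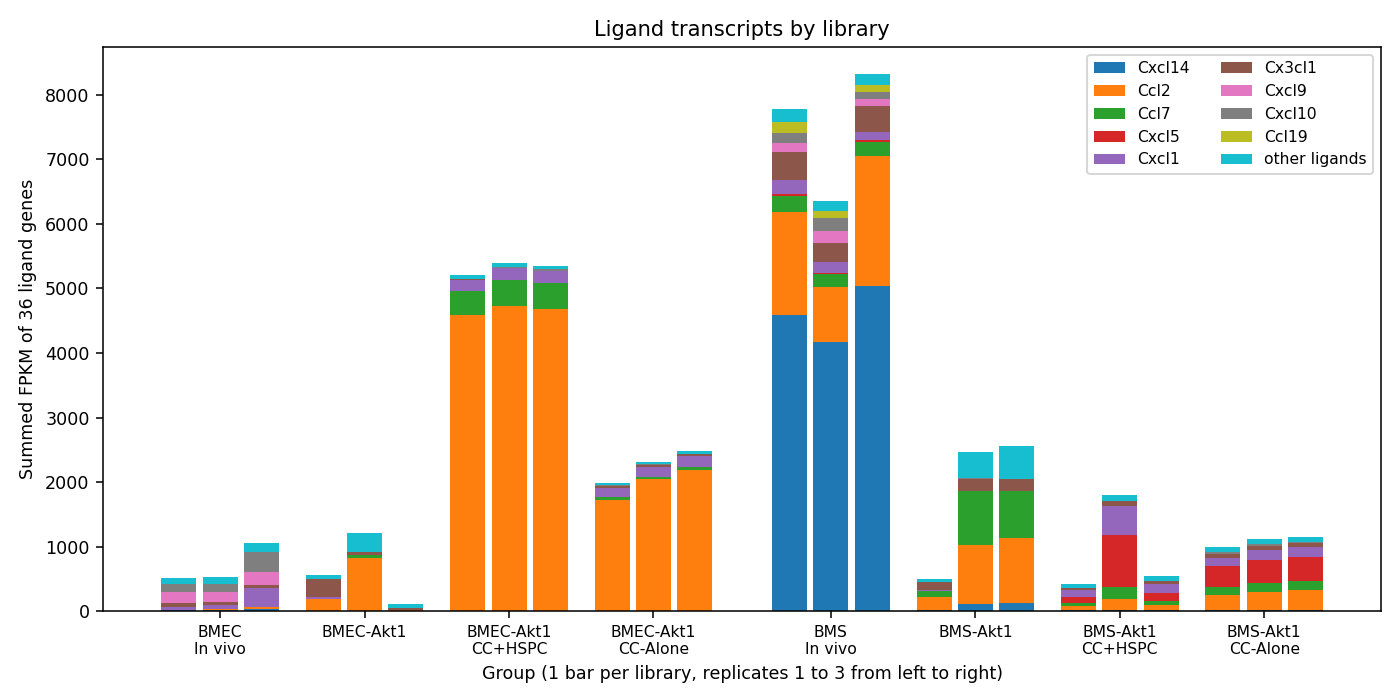
Summed FPKM of the 36 ligand genes in each library (bars, from 0), split by gene in colour, with groups along the axis. Cxcl14 filled most of each BMS in vivo bar, at 59% to 65.6%, and Ccl2 most of each bar of BMEC with HSPC and alone.

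The in vivo and culture groups were set against each other in 1 limma fit of 12 libraries on log2(FPKM + 1), with Benjamini-Hochberg adjustment over 14904 genes and a threshold of 0.05. All differences below are on that scale, which understates the change of low genes, and where a group is listed at 0 they depend on the added 1. Of the 52 genes 30 passed the filter of at least 1 FPKM in 3 libraries. Of those, 5 passed through a single group and so had to differ: Ccl17, Ccr9, Cxcl13 and Cxcr2 through BMS in vivo and Cxcr6 through BMS culture. Among the others, Cxcl2, Ccl19, Ccl3 and Ccl4 passed through in vivo libraries only. Ccl12 passed through BMEC libraries only, and Ccl11 and Ccr1 through BMS libraries only. The filter fixed the direction of their differences between those kinds of library, which are a description. The counts that follow are read beside the share of all tested genes that were called, and are not used as support.

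Among the ligands of Cxcr3, the receptor of activated T and NK cells, Cxcl9 and Cxcl10 were high in vivo in both cell types. Cxcl9 had 180.0, 156 and 203 FPKM in BMEC in vivo and was listed at 0 in all 3 BMEC culture libraries. It had 137, 176 and 101 FPKM in BMS in vivo, against 0, 1.56 and 1.14 FPKM in BMS culture. The groups did not overlap in either cell type, with a difference of 7.49 ± 0.33 in BMEC (SE, adjusted p = 7.32e-08) and 6.26 ± 0.33 in BMS (adjusted p = 1.49e-07, limma). Cxcl10 had 115, 114 and 310.1 FPKM in BMEC in vivo, against 11.0, 7.31 and 7.08 FPKM in BMEC culture, and 152, 201 and 115 FPKM in BMS in vivo, against 6.31, 2.21 and 0 FPKM in BMS culture. Its differences were 4.11 ± 0.64 and 5.74 ± 0.64 (adjusted p = 0.000392 and 3.56e-05). Cxcl11, the remaining ligand of Cxcr3, was above 0 in 1 library alone, BMEC in vivo replicate 3, with 1.88 FPKM. In bulk RNA, fewer cells of a type and less RNA per cell cannot be told apart.

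Cxcl1 and Cxcl2, ligands of the neutrophil receptor Cxcr2, showed the same order against BMEC and BMS culture. Cxcl1 had 40.7, 59.5 and 285 FPKM in BMEC in vivo, against 27.7, 11.6 and 2.50 FPKM in BMEC culture, and 216, 166 and 128 FPKM in BMS in vivo, against 12.8, 3.18 and 0 FPKM in BMS culture. The groups did not overlap in either cell type, though the gap in BMEC was narrow and replicate 3 in vivo lay apart. The difference was 5.43 ± 1.04 in BMS (adjusted p = 0.00145). In BMEC it was 3.05 ± 1.04 (adjusted p = 0.0304) and lost its call with a pseudocount of 0.1 (0.11), without the filter on low values (0.0724), and without BMEC in vivo replicate 3 (2.21, adjusted p = 0.119), BMEC culture replicate 2 (3.16, 0.0559) or BMEC culture replicate 3 (2.24, 0.106). Cxcl2 had 3.49, 6.60 and 23.8 FPKM in BMEC in vivo and 25.5, 7.55 and 6.88 FPKM in BMS in vivo, and was listed at 0 in all 6 libraries of BMEC and BMS culture. Its differences were 3.24 ± 0.59 and 3.60 ± 0.59 (adjusted p = 0.00109 and 0.000536). They are a description, since Cxcl2 had passed the filter through in vivo libraries only. Cxcl5, a further ligand of Cxcr2, had 26.3, 17.8 and 27.2 FPKM in BMS in vivo, against 4.57, 0 and 0 FPKM in BMS culture (3.78 ± 0.76, adjusted p = 0.00198), and at most 3.13 FPKM in BMEC of either setting. That order did not extend to every cultured group. Cxcl1 averaged 156 FPKM in BMEC alone and 178.5 FPKM with HSPC, against 128.4 FPKM in BMEC in vivo. In BMS it averaged 139.3 FPKM alone and 228.3 FPKM with HSPC, against 169.9 FPKM in vivo. Cxcl5 averaged 356 FPKM in BMS alone and 345.7 FPKM with HSPC, against 23.8 FPKM in BMS in vivo. Cxcl2 averaged at most 2.29 FPKM alone or with HSPC.

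These in vivo differences stood beside others that run the same way. Of 24 genes on a list of inducers of chemokine transcription (cytokines, their receptors and NF-kB, interferon-regulatory, AP-1 and C/EBP factors), 21 were tested and 18 were higher in vivo in each cell type, none lower, beside 23.6% of all tested genes higher in BMEC and 24% in BMS. The list also holds Nfkbia and Tnfaip3, which restrain NF-kB. Jun had 3582, 4043 and 5103 FPKM in BMEC in vivo, against 126, 122 and 67.2 FPKM in BMEC culture, and 3942, 3393 and 2576 FPKM in BMS in vivo, against 246, 276 and 238 FPKM in BMS culture. Jun, an immediate-early factor, was thus higher in all 6 in vivo libraries. Irf1, an interferon-regulatory factor, had 432, 430.3 and 561 FPKM in BMEC in vivo, against 85.6, 50.1 and 68.2 FPKM in BMEC culture. It differed by 2.81 ± 0.31 in BMEC and 3.00 ± 0.31 in BMS (adjusted p = 4.44e-05 and 2.18e-05). The interferon genes on the list, Ifnb1 and Ifng, were at 0 in all 24 libraries. Il1b and Lta were at 0 in BMEC in vivo, BMEC culture and BMS culture. The list was chosen with earlier results of these data known, and its part in the chemokine differences was not tested.

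Markers of blood cells moved in the same comparisons. Of all tested genes, 23.6% were higher and 29.8% lower in vivo in BMEC, and 24% were higher and 31.4% lower in BMS. Of 10 pan-leukocyte markers 9 rose in each cell type. The remaining one, Cd53, fell in BMS, with 3.68 to 9.24 FPKM in BMS in vivo, against 20.2 to 40.2 FPKM in BMS culture (-2.41 ± 0.79, adjusted p = 0.025). The sum of the 10 was 360.0 to 480.6 FPKM in BMEC in vivo, against 3.45 to 21.5 FPKM in BMEC culture, and 169 to 246 FPKM in BMS in vivo, against 22.8 to 42.6 FPKM in BMS culture. Granulocyte markers summed to 249 to 342 FPKM in BMEC in vivo, against 2.38 to 6.58 FPKM in BMEC culture, and to 1560.0 to 3390.0 FPKM in BMS in vivo, against 0 to 6.91 FPKM in BMS culture, where 9 of 10 were at 0. Erythroid markers summed to 883 to 1542 FPKM in BMEC in vivo, against 59.3 to 122 FPKM in BMEC culture, and to 37740.0 to 45418 FPKM in BMS in vivo, against 59.1 to 250 FPKM in BMS culture. Ptprc, which marks all leukocytes, was at 1.18 to 3.85 FPKM in BMEC in vivo and 3.77 to 7.42 FPKM in BMS in vivo, and at 0 in the 6 culture libraries. Monocyte and macrophage markers summed to 97.7 to 143 FPKM in BMEC in vivo, against 11.3 to 58.4 FPKM in BMEC culture, and to 128 to 218 FPKM in BMS in vivo, against 25.9 to 104 FPKM in BMS culture. Of 6 tested, 3 rose in BMEC and 2 in BMS and none fell, while C1qa and C1qb were at 0 in vivo in both cell types. Lymphoid markers summed to 102 to 108 FPKM in BMEC in vivo, against 1.87 to 10.6 FPKM in BMEC culture, and to 8.32 to 14.96 FPKM in BMS in vivo, against 0 in BMS culture. All 5 tested rose in each cell type, while the T cell genes Cd3e and Cd3g were at 0. Their part in the results was not tested.

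**Figure D3:**
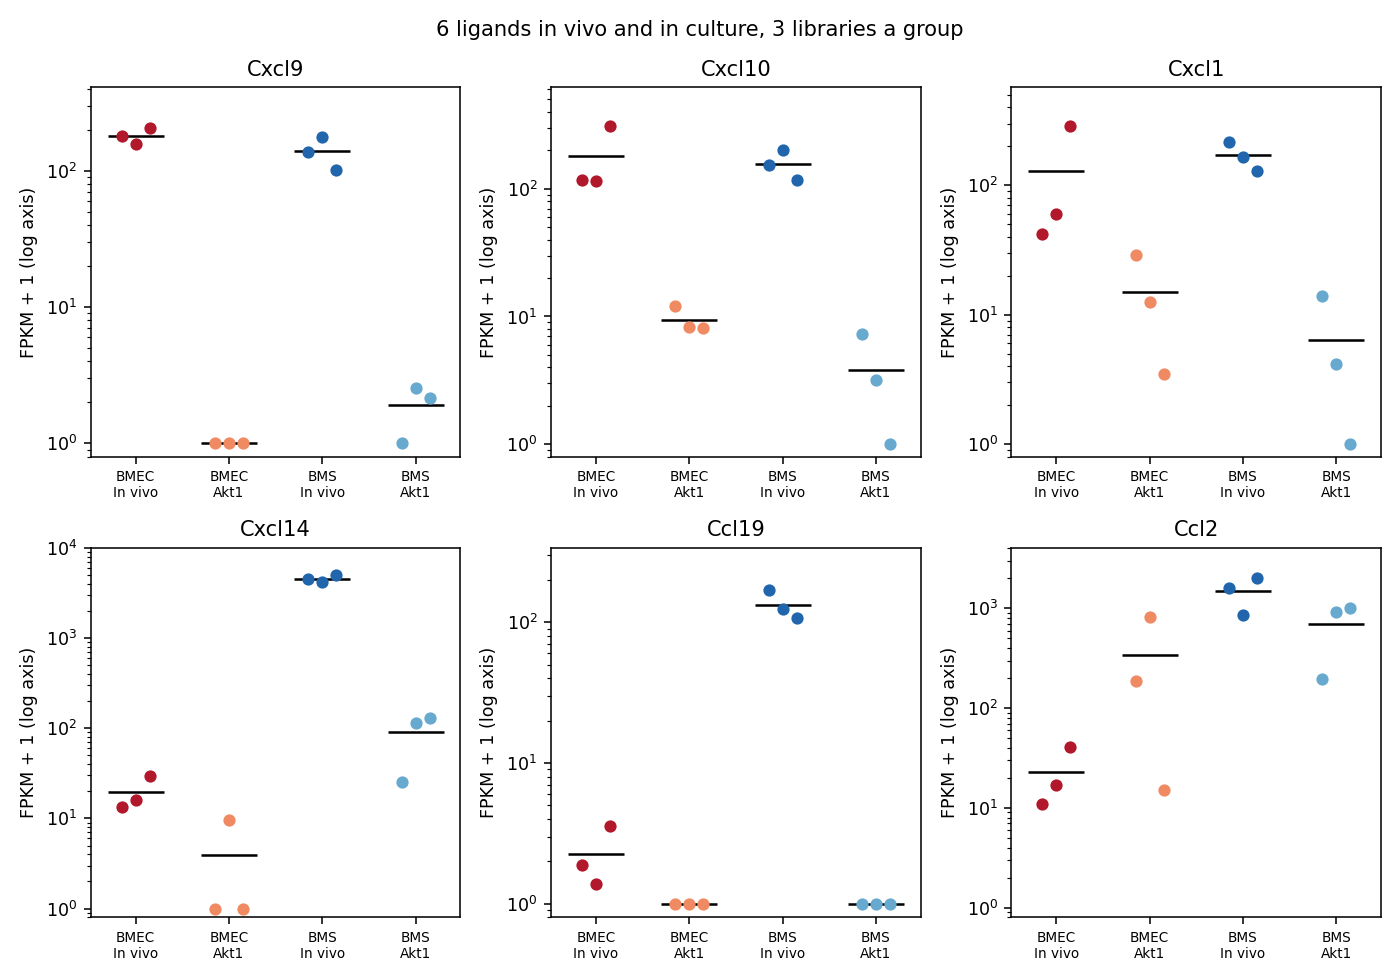
FPKM + 1 (log axis) of 6 ligands in BMEC in vivo, BMEC culture, BMS in vivo and BMS culture, with 1 point per library and a line at the arithmetic mean. Cxcl9 and Cxcl10 lay apart from culture in both cell types, while Cxcl14 and Ccl19 were high in BMS in vivo, with Cxcl14 at 4174 to 5029 FPKM there.

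In stroma, 18 of the 30 tested genes were called between in vivo and culture, 16 of them higher and 2 lower, beside 55.4% of all tested genes (24% higher and 31.4% lower). Over all genes 43.3% of the calls were higher, or 56.5% under trimmed-mean scaling, which moved the median of all genes from -0.15 to 0.05. Cxcl14, a secreted ligand of uncertain receptor, had 4588, 4174 and 5029 FPKM in BMS in vivo, against 24.1, 114 and 129 FPKM in BMS culture (5.99 ± 0.87, adjusted p = 0.000237). Ccl19, a ligand of Ccr7 that guides T cells and dendritic cells, had 168, 123 and 107 FPKM in BMS in vivo and was listed at 0 in BMS culture (7.04 ± 0.31, adjusted p = 3.69e-08). Both stood clear of every cultured library, and Ccl19 was also at 0 in all 12 libraries alone and with HSPC. The Ccr1 ligands Ccl6 and Ccl9 followed, with 25.8, 16.6 and 14.8 FPKM of Ccl6 in BMS in vivo against 0 in BMS culture, and 66.4, 58.5 and 72.0 FPKM of Ccl9 against 12.6, 15.1 and 8.75 FPKM. Their differences were 4.29 ± 0.44 and 2.37 ± 0.30 (adjusted p = 2.19e-05 and 9.03e-05).

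Cxcl13, the ligand of the B cell receptor Cxcr5, had 7.18 to 11.8 FPKM in BMS in vivo, and Ccl17, a ligand of Ccr4, had 4.65 to 17.2 FPKM. Both were listed at 0 in the other 21 libraries. Ccl25, the ligand of Ccr9, went the other way, with 5.41, 3.70 and 3.21 FPKM in BMS in vivo, against 11.6, 7.82 and 7.10 FPKM in BMS culture (-0.94 ± 0.26, adjusted p = 0.0118, or -0.81 and 0.0505 without BMS in vivo replicate 3). Ccl11 and Ccl8, which lie near each other on chromosome 11 in the RefSeq annotation (GRCm38.p6), were seen in culture replicates 2 and 3 and hardly elsewhere. Ccl11, an attractant of eosinophils, had 5.07 to 7.22 FPKM in BMS in vivo, against 0, 309 and 377 FPKM in BMS culture. Ccl8 was listed at 0 in BMS in vivo, against 0, 54.5 and 54.7 FPKM in BMS culture, and at 0 in every library of the other groups. The test of Ccl11 in vivo against culture gave -2.74 ± 1.76 (adjusted p = 0.212) and rests on BMS culture replicate 1, without which it gave -5.54 (adjusted p = 2.67e-08). Ccl2 did not pass either, with 1587, 851 and 2021 FPKM in BMS in vivo against 196, 911 and 999 FPKM in BMS culture.

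In endothelium 16 of the 30 were called in vivo against culture, 13 of them higher and 3 lower. Over all tested genes 53.3% were called (23.6% higher and 29.8% lower), a share equal to that of the tested chemokine genes. Beyond the ligands of Cxcr3 and Cxcr2, Ccl12, a monocyte attractant of the mouse, had 10.8, 14.9 and 17.3 FPKM in BMEC in vivo, against 0, 4.59 and 0 FPKM in BMEC culture (3.09 ± 0.54, adjusted p = 0.000905). Ccl4, an attractant of monocytes and T cells, had 4.32, 6.46 and 3.60 FPKM in BMEC in vivo and was listed at 0 in BMEC culture (2.50 ± 0.39, adjusted p = 0.000384). Neither overlapped, though Ccl4 had passed the filter through in vivo libraries only. Ccl25 and Ccl5 were lower in vivo. Ccl5, an attractant of T cells, was listed at 0 in BMEC in vivo, against 12.8, 3.57 and 4.94 FPKM in BMEC culture (-2.85 ± 0.75, adjusted p = 0.00882). Ccl25 had 3.64, 3.26 and 3.55 FPKM in BMEC in vivo, against 17.3, 12.8 and 9.31 FPKM in BMEC culture (-1.62 ± 0.26, adjusted p = 0.000545).

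Ccl2 in BMEC was the most scattered ligand, with 9.82, 15.9 and 39.4 FPKM in vivo, against 185, 819 and 14.3 FPKM in culture, and its difference of -2.77 ± 1.23 did not pass (adjusted p = 0.081). Without BMEC culture replicate 3 it was -4.33 (adjusted p = 0.00279). Cx3cl1, an adhesive ligand anchored in the membrane, had 56.8, 57.1 and 48.8 FPKM in BMEC in vivo, against 273, 36.8 and 27.9 FPKM in BMEC culture, where replicate 1 stood apart. Its difference was -0.28 ± 0.67 (adjusted p = 0.765), and 0.74 (adjusted p = 0.0259) without that library. Cxcl16, another ligand with a membrane anchor, had 63.9, 62.7 and 70.7 FPKM in BMEC in vivo and 18.3, 265 and 45.7 FPKM in BMEC culture, which enclosed the in vivo values.

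Between endothelium and stroma in vivo 16 of the 30 were called, 14 lower in BMEC and 2 higher, beside 49.3% of all tested genes (24.2% lower and 25% higher). The lower ones were 10 of the 23 tested ligands and 4 receptors, among them the 4 genes that had passed the filter through BMS in vivo. Cxcl14 had 12.5, 14.9 and 28.8 FPKM in BMEC in vivo, against the 4174 to 5029 FPKM of BMS in vivo (-7.95 ± 0.87, adjusted p = 2.67e-05). Ccl19 had 0.87, 0.37 and 2.54 FPKM in BMEC in vivo, against 107 to 168 FPKM in BMS in vivo (-5.98 ± 0.31, adjusted p = 1.02e-07). Ccl2 had 9.82 to 39.4 FPKM in BMEC in vivo, against 851 to 2021 FPKM in BMS in vivo (-6.16 ± 1.23, adjusted p = 0.00182). Ccl7, also an attractant of monocytes, was listed at 0 in BMEC in vivo, against 259.7, 199 and 215 FPKM in BMS in vivo (-7.81 ± 1.15, adjusted p = 0.000242). Cx3cl1 had 48.8 to 57.1 FPKM in BMEC in vivo, against 297 to 433 FPKM in BMS in vivo (-2.77 ± 0.67, adjusted p = 0.00573). No pair of these groups overlapped.

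The 2 that were higher in endothelium in vivo were Ccl12, listed at 0 in BMS in vivo (3.91 ± 0.54, adjusted p = 0.000161), and Ccl4, with 0, 2.15 and 0 FPKM in BMS in vivo (1.95 ± 0.39, adjusted p = 0.00173). The ligands of Cxcr3 did not differ detectably between the cell types in vivo. The difference was 0.41 ± 0.33 for Cxcl9 (adjusted p = 0.336) and 0.07 ± 0.64 for Cxcl10 (adjusted p = 0.954), and the groups overlapped for both. Cxcl1 and Cxcl2 overlapped as well (-0.90 ± 1.04 and -0.36 ± 0.59, adjusted p = 0.512 and 0.653).

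Whether the in vivo difference itself differed between the cell types was tested as an interaction, which called 11 of the 30 beside 33.5% of all tested genes (16.4% higher and 17.1% lower). The interaction was positive, a difference higher in BMEC than in BMS, for Ccl12, Ccl27a and Ccl4, and negative for the other 8, with Ccl19 at -5.98 ± 0.44 (adjusted p = 3.91e-06). Cxcl9, Cxcl10, Cxcl1, Cxcl2 and Cxcl14 were not called. Without BMS in vivo replicate 1, 2 or 3 the count was 4, 5 or 4. The 4 genes that had passed the filter through those libraries alone then left the fit, and calls of genes that stayed in it were lost as well (Ccl27a and Cxcl5 each time, Ccl4 without replicate 1 or 3).

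In culture, BMEC and BMS differed in 9 of the 30, 7 lower and 2 higher in BMEC, beside 38.7% of all tested genes (18.6% lower and 20.1% higher). Ccl7 had 4.29, 35.9 and 0 FPKM in BMEC culture, against 90.0, 836 and 737 FPKM in BMS culture (-6.05 ± 1.15, adjusted p = 0.00219). Cxcl14 had 0, 8.72 and 0 FPKM in BMEC culture, against 24.1, 114 and 129 FPKM in BMS culture (-5.08 ± 0.87, adjusted p = 0.00114). Ccl9 and Ccl27a were likewise lower in BMEC culture without overlap (-3.35 ± 0.30 and -3.35 ± 0.63, adjusted p = 1.29e-05 and 0.00206), although Ccl27a shares sequence with Ccl27b and its reads could be split. Ccl11, at 0 in BMEC culture, was called at -5.61 ± 1.76 (adjusted p = 0.029) despite the 0 in BMS culture replicate 1, and lost the call without any 1 library of BMEC culture, or without BMS culture replicate 2 or 3 (adjusted p = 0.0582 to 0.112). Cxcl16, higher in BMEC culture at 2.66 ± 0.95 (adjusted p = 0.0478), rested on BMEC culture replicate 2, without which it was 1.61 (adjusted p = 0.15), and gave 1.65 (adjusted p = 0.133) without BMS culture replicate 1. It also lost the call without BMEC culture replicate 3 (2.87, 0.0721) or BMS culture replicate 2 (3.10, 0.0567). The fit without the 3 culture libraries that carry Xist leaves BMEC culture 1 library, so its calls are not read here.

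The libraries alone and with HSPC formed a separate limma fit of 12 libraries and 14017 genes, which 21 of the 52 genes entered, none of them through a single group. Several entered through the libraries of a single cell type, however. Cxcl14, Cxcl15 and Ccl27b were at 0 in BMEC, and Ccl12, Ccl21a, Ccl21c and Cxcr3 were at 0 in BMS. The filter thus fixed the direction of their differences between the cell types, which are a description. The labels do not say whether HSPC were removed before RNA was taken. In endothelium Ccl2 and Ccl7 were higher with HSPC. Ccl2 had 4580.1, 4732 and 4680 FPKM in BMEC with HSPC, against 1722, 2049 and 2181 FPKM in BMEC alone (1.24 ± 0.29, adjusted p = 0.004). Ccl7 had 381, 394 and 409 FPKM in BMEC with HSPC, against 40.6, 36.7 and 50 FPKM in BMEC alone (3.20 ± 0.41, adjusted p = 6.01e-05). Each group was tight and none overlapped. Ccl2 and Ccl7 are neighbours on chromosome 11.

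Of the 21 tested genes 8 were called in BMEC with HSPC against alone, 6 higher and 2 lower, beside 48.6% of all tested genes (28.3% higher and 20.3% lower). Over all genes 58.2% of the calls were higher, or 45.5% after quantile normalization. Ccl9, a ligand of Ccr1 made by myeloid cells of the mouse, had 13.1, 19.0 and 10.8 FPKM in BMEC with HSPC and was listed at 0 in BMEC alone (3.90 ± 0.22, adjusted p = 7.19e-08). Cxcl16 had 7.98, 7.18 and 7.90 FPKM in BMEC with HSPC, against 3.23, 3.25 and 4.78 FPKM in BMEC alone (0.88 ± 0.14, adjusted p = 0.000406). Cxcr3 had 3.75, 3.38 and 3.06 FPKM in BMEC with HSPC, against 1.34, 0 and 1.45 FPKM in BMEC alone (1.29 ± 0.27, adjusted p = 0.00202). Cxcl2, at 2.66, 2.48 and 1.72 FPKM in BMEC with HSPC against 0, 0 and 1.44 FPKM in BMEC alone, was called at 1.28 ± 0.45 (adjusted p = 0.0345) and lost the call when any 1 of its 6 libraries other than BMEC alone replicate 3 was left out (1.06 to 1.41, adjusted p = 0.0505 to 0.12).

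Cx3cl1 moved against these, with 8.07, 6.72 and 6.48 FPKM in BMEC with HSPC, against 34.7, 30.9 and 32.0 FPKM in BMEC alone (-2.06 ± 0.14, adjusted p = 2.96e-07). Ccl21c, one of near-identical copies of a Ccr7 ligand whose reads could be split, had 1.45, 0.55 and 0.23 FPKM in BMEC with HSPC, against 6.73, 4.28 and 4.55 FPKM in BMEC alone (-1.87 ± 0.22, adjusted p = 3.10e-05). Ccl21a had 1.84, 2.69 and 1.93 FPKM with HSPC and 7.70, 8.32 and 0.91 FPKM alone, where replicate 3 set it apart (-0.78 ± 0.46, adjusted p = 0.192, or -1.52 and 5.73e-06 without that library). Cxcl1 and Cxcl10 were not called. Cxcl1 had 171, 186 and 179 FPKM in BMEC with HSPC, against 146, 154 and 169 FPKM in BMEC alone, without overlap (0.19 ± 0.40, adjusted p = 0.752, limma). Its standard error is shared with the scattered libraries of BMS with HSPC. Cxcl10 had 10.5, 10.3 and 16.98 FPKM in BMEC with HSPC, against 13.5, 11.5 and 10.2 FPKM in BMEC alone.

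**Figure D4:**
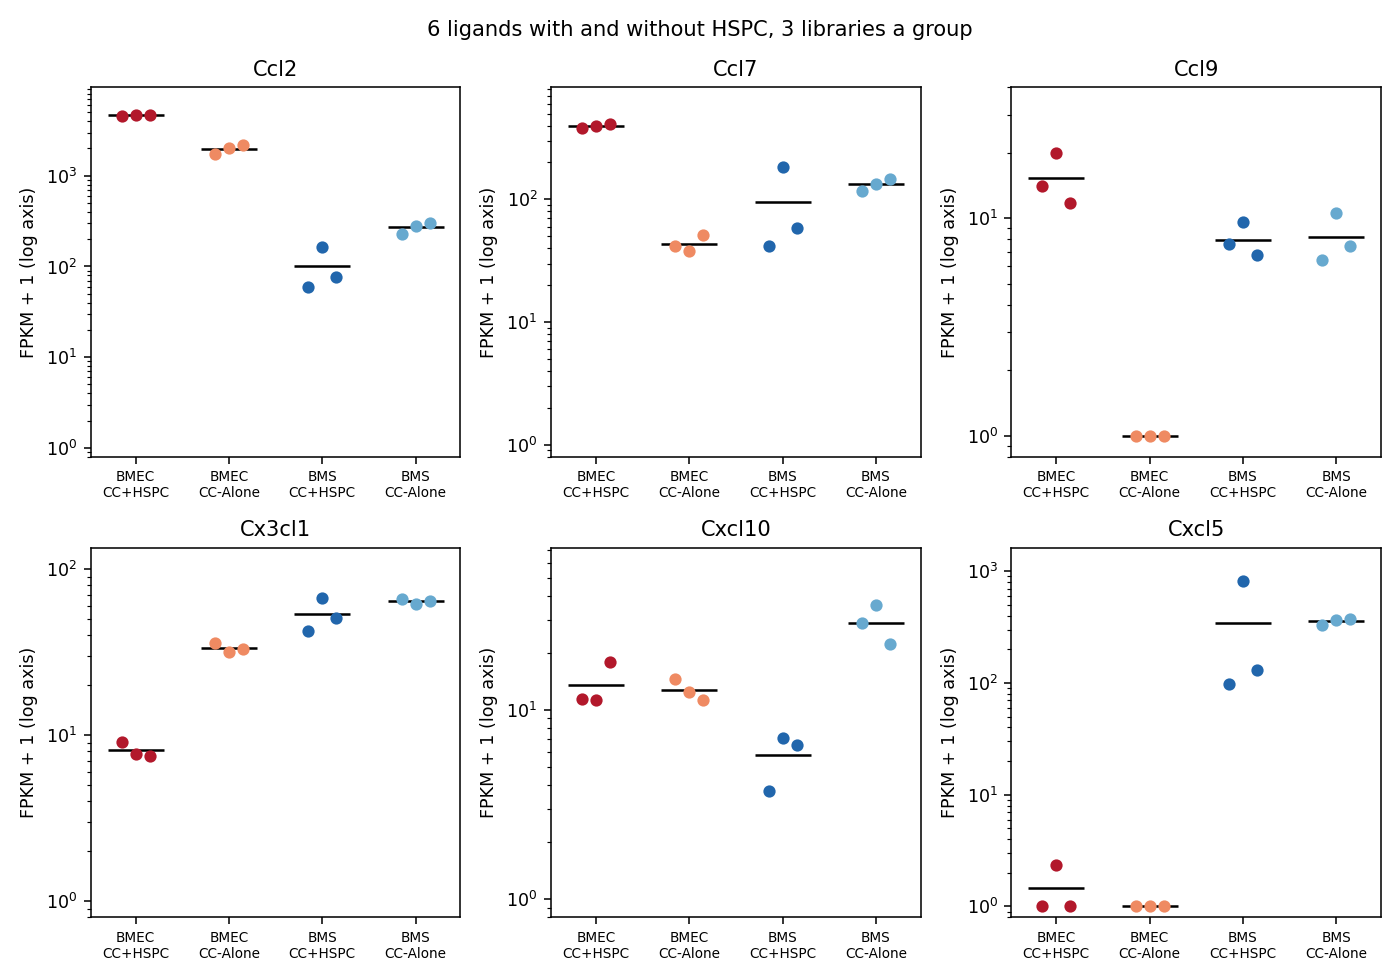
FPKM + 1 (log axis) of 6 ligands in BMEC with HSPC, BMEC alone, BMS with HSPC and BMS alone, with 1 point per library and a line at the arithmetic mean. Ccl2 and Ccl7 were higher with HSPC in BMEC, and in BMS replicate 2 with HSPC lay above the other two, at 810.3 FPKM of Cxcl5 against 96.7 and 130.0 FPKM.

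In stroma the same addition went with lower Ccl2 and Cxcl10. Ccl2 had 58.6, 165 and 75.1 FPKM in BMS with HSPC, against 227, 278 and 303 FPKM in BMS alone (-1.56 ± 0.29, adjusted p = 0.000593). Cxcl10 had 2.74, 6.13 and 5.52 FPKM in BMS with HSPC, against 27.7, 34.9 and 21.2 FPKM in BMS alone (-2.35 ± 0.26, adjusted p = 1.38e-05). Neither overlapped. In all, 6 of the 21 were called, 2 higher and 4 lower, beside 61% of all tested genes (25.6% higher and 35.4% lower). Cxcl15 and Ccl25 were the other lower ones (-0.71 ± 0.17 and -0.41 ± 0.12, adjusted p = 0.00291 and 0.00911), at levels under 10 FPKM. Ccr10 was higher, with 9.99, 8.07 and 8.92 FPKM in BMS with HSPC, against 6.14, 6.25 and 6.89 FPKM in BMS alone (0.43 ± 0.09, adjusted p = 0.00224), a call lost in a fit of all 8 groups (adjusted p = 0.448).

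Replicate 2 of BMS with HSPC decided several of these results. Cxcl5 had 96.7, 810.3 and 130.0 FPKM in BMS with HSPC, against 330.2, 365 and 373 FPKM in BMS alone, and Cxcl1 had 104, 451 and 130.2 FPKM, against 126, 145 and 147 FPKM. Ccl7 had 40.4, 184 and 57.0 FPKM in BMS with HSPC, against 117, 133 and 146 FPKM in BMS alone. For each, replicate 2 lay above and at least 1 of the other two below all libraries alone. None of the 3 was called with all libraries (Cxcl5 -0.71 ± 0.63, Cxcl1 0.39 ± 0.40, Ccl7 -0.79 ± 0.41, adjusted p = 0.357, 0.427 and 0.113). Without that library 10 of the 21 were called, 1 higher and 9 lower. Over all genes 8624 were then called, 42.7% of them higher, against 8551 with all libraries. Cxcl5, Ccl7 and Cxcl1 were among the lower ones (-1.66 ± 0.31, -1.43 ± 0.15 and -0.26 ± 0.10, adjusted p = 0.000821, 1.41e-05 and 0.0427). Cx3cl1 and Cxcl16 also became called as lower (-0.46 ± 0.10 and -0.47 ± 0.13, adjusted p = 0.00176 and 0.00878). Cxcl2, called as higher with all libraries at 1.13 ± 0.45 (adjusted p = 0.0465) on values of 0, 2.73 and 1.80 FPKM against 0 in BMS alone, gave 0.74 (adjusted p = 0.173) without it. Cxcl2 also lost the call without BMS with HSPC replicate 3 or any 1 library of BMS alone (0.95 to 1.13, adjusted p = 0.0915 to 0.138).

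As an interaction, the HSPC difference in BMEC minus that in BMS was called for 11 of the 21, positive for 8 and negative for 3, beside 57% of all tested genes called (36% higher and 21.1% lower). Ccl2 was higher with HSPC in BMEC and lower in BMS, and the test of that contrast gave 2.80 ± 0.41 (adjusted p = 0.00014). For Ccl7 it was 3.99 ± 0.58, for Ccl9 3.92 ± 0.31 and for Cxcl10 2.41 ± 0.37 (adjusted p = 0.000137, 1.47e-06 and 0.000226). Cx3cl1 gave -1.77 ± 0.19 (adjusted p = 1.66e-05). Cxcl1, Cxcl5 and Ccl5 were not called, but became so without BMS with HSPC replicate 2 (0.45 ± 0.13, 2.07 ± 0.41 and 1.37 ± 0.46, adjusted p = 0.0132, 0.00148 and 0.0254). In a fit of all 8 groups, whose shared spread takes in the scattered culture libraries, the calls of Ccl2 were lost in BMEC, in BMS and for the interaction (adjusted p = 0.517, 0.27 and 0.179), as was that of Cx3cl1 for the interaction (0.11). The calls of Cxcl16 and Cxcl2 in BMEC (0.556 and 0.168), of Ccl25, Ccr10 and Cxcl2 in BMS (0.165, 0.448 and 0.162) and of Ccl25, Ccr10 and Cxcl16 for the interaction (0.127, 0.699 and 0.5) were also lost in it.

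**Figure D5:**
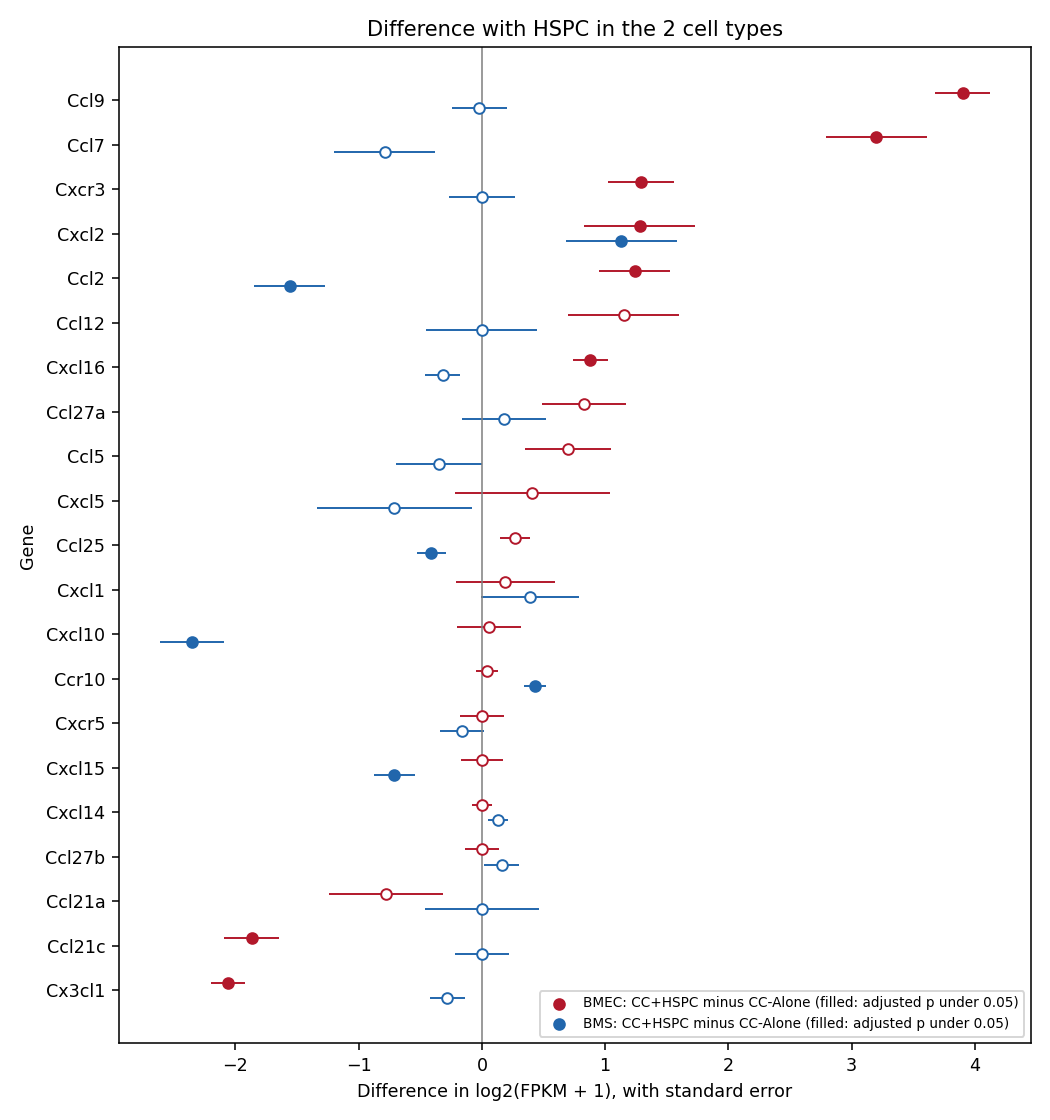
Difference in log2(FPKM + 1) with HSPC minus alone for the 21 tested genes, with standard errors, in BMEC and in BMS, filled where the adjusted p was under 0.05. Ccl2 lay at 1.24 in BMEC and -1.56 in BMS, and Ccl9, Ccl7 and Cx3cl1 moved by more than 2 in BMEC without a call in BMS.

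Blood cell markers moved with HSPC in both cell types. Of all tested genes, 28.3% were higher and 20.3% lower with HSPC in BMEC, and 25.6% were higher and 35.4% lower in BMS. Of 10 pan-leukocyte markers all rose in each, and their sum was 195 to 262 FPKM in BMEC with HSPC, against 7.40 to 9.14 FPKM in BMEC alone, and 46.4 to 61.7 FPKM in BMS with HSPC, against 1.20 to 2.69 FPKM in BMS alone. Granulocyte markers such as S100a8, Elane and Mpo summed to 1608 to 1794 FPKM in BMEC with HSPC, against 48.1 to 54.8 FPKM in BMEC alone, where 9 of 10 were at 0. In BMS they summed to 644 to 848 FPKM with HSPC, and all 10 were at 0 alone. Monocyte and macrophage markers summed to 439.9 to 465 FPKM in BMEC with HSPC, against 193 to 211 FPKM in BMEC alone, of which Cd68 made up the most, and C1qa, C1qb and Ly86 were at 0 in both. In BMS they summed to 39.4 to 47.6 FPKM with HSPC, against 15.8 to 19.6 FPKM alone. All 6 tested rose in BMEC, and in BMS 2 rose and 2 fell. Lymphoid markers summed to 82 to 101 FPKM in BMEC with HSPC, against 25.1 to 88.8 FPKM in BMEC alone, and to 19.6 to 24.3 FPKM in BMS with HSPC, against 15.6 to 16.4 FPKM in BMS alone. Their part in the chemokine differences was not tested. Of 17 tested genes on the list of inducers, 10 rose and 2 fell in BMEC, beside 28.3% and 20.3% of all tested genes. In BMS 9 of the 17 rose and 6 fell, beside 25.6% and 35.4%. Among the inducers, Il6, a cytokine of inflammation, had 14.2, 15.02 and 13.9 FPKM in BMEC with HSPC, against 4.12, 4.34 and 3.54 FPKM in BMEC alone (1.62 ± 0.08, adjusted p = 4.29e-08), and was at 0 in BMS. The part of the inducers was not tested either.

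Between the cell types, endothelium and stroma alone differed in 18 of the 21, 6 higher and 12 lower in BMEC, beside 83.3% of all tested genes (42% higher and 41.3% lower). With HSPC 17 of the 21 differed, 10 higher and 7 lower in BMEC, beside 85.1% (46.6% higher and 38.6% lower). Among the ligands lower in BMEC in both settings were Cxcl5, Cxcl14, Ccl27a, Cx3cl1 and Cxcl15. Cxcl14 and Cxcl15 had entered the fit through BMS libraries only, so their differences here are a description. Cxcl5 was listed at 0 in BMEC alone, against 330.2 to 373 FPKM in BMS alone (-8.48 ± 0.63, adjusted p = 1.01e-07). Cxcl14 was listed at 0 in BMEC with and without HSPC, against 20.7 to 25.7 FPKM in BMS (-4.70 ± 0.08 with HSPC and -4.57 ± 0.08 alone, adjusted p = 9.46e-14 and 1.17e-13). Ccl27a averaged 1.57 FPKM in BMEC with HSPC, against 26.5 FPKM in BMS with HSPC, and 0.66 FPKM in BMEC alone, against 23.2 FPKM in BMS alone (-3.41 ± 0.34 and -4.06 ± 0.34, adjusted p = 1.34e-06 and 2.86e-07). Ccl2 was higher in BMEC, at 2.88 ± 0.29 above BMS alone and 5.68 ± 0.29 above BMS with HSPC (adjusted p = 1.56e-06 and 2.53e-09). Ccl7 and Cxcl10 were lower in BMEC than in BMS alone (-1.62 ± 0.41 and -1.16 ± 0.26, adjusted p = 0.00294 and 0.00147) and higher in BMEC than in BMS with HSPC (2.37 ± 0.41 and 1.25 ± 0.26, adjusted p = 0.000173 and 0.000858). In a fit of all 8 groups the calls alone of Ccl7, Cxcl10 and Cx3cl1 were lost (adjusted p = 0.136, 0.0584 and 0.121). Cxcl16 had 3.23 to 4.78 FPKM in BMEC alone against 4.92 to 5.38 FPKM in BMS alone (-0.37 ± 0.14, adjusted p = 0.0328). That call was lost without BMEC alone replicate 1 or 2 or any 1 library of BMS alone (adjusted p = 0.0559 to 0.116), and quantile normalization gave 0.02.

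By mean level of Ccl2 the groups ranked in the order BMEC with HSPC, BMEC alone, BMS in vivo, BMS culture, BMEC culture, BMS alone, BMS with HSPC and BMEC in vivo, with means of 4664, 1984, 1486, 702, 339.6, 269.5, 99.6 and 21.7 FPKM. The values of BMEC alone, BMS in vivo, BMS culture, BMEC culture and BMS alone overlapped between neighbours in that order. For Cxcl14 the mean of 4597 FPKM in BMS in vivo was followed by 89.1 FPKM in BMS culture, 25.1 FPKM in BMS with HSPC, 22.8 FPKM in BMS alone, 18.8 FPKM in BMEC in vivo and 2.91 FPKM in BMEC culture. Only BMS in vivo lay clear of its neighbour in that order by values that did not overlap, together with BMEC in vivo above BMEC culture.

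The receptors described here, which leave out Cxcr4 and Ccr2, stayed low throughout. Their sum was 30.3 to 48.3 FPKM in BMS in vivo and 5.05 to 18.8 FPKM in the other 7 groups. In BMS in vivo Cxcr2, the neutrophil receptor, had 11.4, 3.66 and 4.04 FPKM, Ccr9 had 5.65, 4.80 and 4.50 FPKM, Ccr7 had 3.60, 2.01 and 1.40 FPKM, and Ccr1 had 8.52, 3.26 and 3.44 FPKM. Cxcr2, Ccr9 and Ccr3 had no value of 1 FPKM or more in any other group. Cxcr2, Ccr1, Ccr7, Ccr9, Ccr3 and Ccr10 were all highest in replicate 1 of BMS in vivo. That library also had the highest granulocyte sum, 3390.0 FPKM, whose part was not tested. Ccr1 had 1.27, 7.10 and 3.69 FPKM in BMS culture and was not called between in vivo and culture (0.35 ± 0.43, adjusted p = 0.507). Ccr10 was the one receptor above 0 in all 24 libraries, between 3.02 and 16.3 FPKM. It had 16.3, 13.2 and 15.2 FPKM in BMS in vivo, against 3.02, 6.55 and 9.74 FPKM in BMS culture. Its call there (1.20 ± 0.47, adjusted p = 0.0488) was lost when any 1 of those libraries other than BMS culture replicate 3 was left out (adjusted p = 0.0798 to 0.159), and with other settings (0.0585 to 0.104).

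The atypical chemokine receptors bind chemokines without classical signalling. Some of them reached levels in vivo that no classical receptor described here had, and Cxcr4 and Ccr2 were not among those. Darc (Ackr1), which binds inflammatory ligands on venular endothelium, had 2123, 2518 and 3194 FPKM in BMEC in vivo and was listed at 0 in BMEC culture (11.33 ± 0.53, adjusted p = 1.26e-07). In BMS in vivo it had 18.4 to 23.1 FPKM. Gpr182, which takes up chemokines on sinusoidal endothelium, had 1122, 1014 and 1456 FPKM in BMEC in vivo, against 1.80, 168 and 3.92 FPKM in BMEC culture (6.48 ± 1.18, adjusted p = 0.0011). Ackr2, a scavenger of inflammatory CC ligands, had 46.4, 46.9 and 54.2 FPKM in BMEC in vivo, against 0, 0.70 and 0 FPKM in BMEC culture (5.39 ± 0.24, adjusted p = 7.49e-08). In none of these did the groups overlap.

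Ackr4, which removes Ccl19, Ccl21 and Ccl25, was instead a gene of stroma in vivo. It had 1341, 1244 and 1196 FPKM in BMS in vivo, against 0.88, 0 and 0 FPKM in BMS culture (10 ± 0.75, adjusted p = 2.20e-06), and 3.15 to 9.50 FPKM in BMEC in vivo. Its ligand Ccl19 had 107 to 168 FPKM in the same 3 libraries. Ackr4 also differed with HSPC in stroma, with 0.80, 2.07 and 1.74 FPKM in BMS with HSPC, against 25.2, 27.2 and 25.9 FPKM in BMS alone (-3.45 ± 0.23, adjusted p = 1.97e-07) without overlap. In the BMEC libraries of that fit it was at most 0.77 FPKM, and the interaction gave 3.73 ± 0.32 (adjusted p = 3.25e-06). Ccrl2 and Cmklr1 bind the attractant chemerin. Ccrl2 had 23.6 to 28.3 FPKM in BMEC in vivo, against 13.7 to 50.8 FPKM in BMEC culture, and 50.8 to 65.4 FPKM in BMS in vivo, against 0 in BMS culture. Cmklr1 had 21.9 to 30.03 FPKM in BMEC in vivo, against 911, 348 and 739 FPKM in BMEC culture. Rarres2, the chemerin gene, had 295 to 321 FPKM in BMEC in vivo and was listed at 0 in BMEC culture (8.25 ± 0.68, adjusted p = 5.76e-06). A list of 12 genes held these together with the chemokines Pf4, Ppbp, Xcl1 and Cklf and the receptor Xcr1. Of 10 tested, 6 were higher and 1 lower in vivo in BMEC, beside 23.6% and 29.8% of all tested genes, and 7 were higher and 1 lower in BMS, beside 24% and 31.4%. Of 9 tested with HSPC, 4 rose and 2 fell in BMEC, beside 28.3% and 20.3%, and 3 rose and 2 fell in BMS, beside 25.6% and 35.4%. Ackr3, named after its values were seen, was higher in BMEC in every setting, with 545 to 569 FPKM in BMEC alone against 50.7 to 54.4 FPKM in BMS alone (3.38 ± 0.04, adjusted p = 1.09e-14).

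Of 23 genes that carry or limit signals from chemokine receptors, or trim their ligands, 23 were tested between in vivo and culture. In BMEC 10 rose and none fell, beside 53.3% of all tested genes called, and in BMS 8 rose and 5 fell, beside 55.4%. Dpp4, a peptidase that trims and inactivates chemokines, had 16.1, 19.2 and 17.8 FPKM in BMEC in vivo and was listed at 0 in BMEC culture (4.22 ± 0.20, adjusted p = 1.36e-07). Of 21 tested with HSPC, 9 rose and 6 fell in each cell type, beside 48.6% of all tested genes called in BMEC and 61% in BMS. Among them was Rac2, a GTPase of blood cells, which had 16.1, 20.8 and 16.0 FPKM in BMEC with HSPC and was listed at 0 in BMEC alone (4.21 ± 0.13, adjusted p = 6.89e-10). Rac2 is also on the pan-leukocyte list.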

How the data were processed

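PolyA RNA of 24 libraries was sequenced as paired ends from TruSeq libraries, per the labels' protocols. The deposited unit is FPKM, to 2 decimals, and TopHat, Cufflinks and build mm9 are named in the submitters' processing notes. Their versions and any further scaling are not given in the sources used here. Low values showed no whole-read steps, so depth is unknown, no counting interval could be set and no count test was run.

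Groups were taken from the titles. All 23879 symbols were loaded with Python 3.11.15 and pandas 2.3.3. Each of 2 limma 3.58.1 fits (R 4.3.3; moderated with an intensity trend, and tested on simulated data) took 12 libraries on log2(FPKM + 1), genes with at least 1 FPKM in at least 3 of them, and Benjamini-Hochberg adjustment over all tested genes, 2-sided. They gave 10 comparisons, 2 of them interactions. The settings varied were the pseudocount (0.1), the filter (none, or 5 FPKM), trimmed-mean scaling, quantile normalization, other sets of libraries, a replicate block, and each library left out. A fit without the libraries carrying Xist was added after the data were seen. Members, the 12 gene lists with 149 entries and the tests were chosen with earlier results of these data known. Genes with a group mean of at least 10 FPKM are given per library where the results turn on them, others by range, and up to 4 called genes are named per list and comparison. Promoters came from RefSeq (GRCm38.p6). Figures were drawn with matplotlib 3.10.9. Some items are not reported here.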

Additional observations from a re-analysis of the deposited data

Results flagged for a closer look

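The difference between in vivo and culture was itself different in BMEC and in BMS for 11 of the 30 tested genes, beside 33.5% of all tested genes. The test was limma's interaction test with Benjamini-Hochberg adjustment over all genes. Values are the BMEC difference minus the BMS difference in log2(FPKM + 1), with the standard error. It was 3.09 ± 0.77 for Ccl12, 2.70 ± 0.89 for Ccl27a and 1.95 ± 0.55 for Ccl4. On the other side it was -5.98 ± 0.44 for Ccl19, -4.35 ± 0.63 for Ccl6, -3.46 ± 1.08 for Cxcl5, -3.43 ± 0.24 for Cxcl13, -3.26 ± 0.47 for Ccl17, -2.73 ± 0.43 for Cxcr2, -2.71 ± 0.30 for Ccr7 and -2.39 ± 0.24 for Ccr9. Cxcl13, Ccl17, Cxcr2 and Ccr9 had passed the filter on low values through BMS in vivo alone and so had to differ there, and their values are a description. Adjusted p-values were 0.0401 for Ccl27a, 0.0314 for Cxcl5, 0.0192 for Ccl4, 0.0111 for Ccl12 and 0.000783 or less for the rest. The call of Ccl4 was lost without BMEC in vivo replicate 2, BMS in vivo replicate 1 or BMS in vivo replicate 3 (1.68 to 1.75, adjusted p = 0.0518 to 0.0559). Ccl27a lost its call when any 1 library other than BMEC culture replicate 1 or BMS culture replicate 1 or 2 was left out (adjusted p = 0.0577 to 0.0852), and was 0.58 (adjusted p = 0.207) without the 3 libraries that carry Xist. Cxcl5 lost it without any 1 library other than BMEC culture replicate 2 or 3, BMS culture replicate 1 or BMEC in vivo replicate 3 (-2.78 to -3.65, adjusted p = 0.0522 to 0.0778).

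The HSPC difference differed between BMEC and BMS for 11 of the 21 tested genes, beside 57% of all tested genes, again as BMEC minus BMS. It was 3.99 ± 0.58 for Ccl7, 3.92 ± 0.31 for Ccl9, 2.80 ± 0.41 for Ccl2, 2.41 ± 0.37 for Cxcl10, 1.29 ± 0.38 for Cxcr3, 1.20 ± 0.20 for Cxcl16, 0.71 ± 0.23 for Cxcl15 and 0.68 ± 0.16 for Ccl25. It was -1.87 ± 0.31 for Ccl21c, -1.77 ± 0.19 for Cx3cl1 and -0.39 ± 0.13 for Ccr10. Adjusted p-values were 0.0282 for Ccr10, 0.0222 for Cxcl15, 0.0126 for Cxcr3 and 0.00428 or less for the rest. Cxcl15 lost its call without BMS alone replicate 1 or 2 (adjusted p = 0.0521 and 0.051), and Ccr10 without any 1 library other than BMEC alone replicate 3, BMEC with HSPC replicate 1, BMS alone replicate 3 or BMS with HSPC replicate 2 or 3 (-0.32 to -0.38, adjusted p = 0.0535 to 0.0687).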

How the results depend on the processing

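Of 154 counts of called genes under alternatives, 15 moved by over 1.5 times. A filter of 5 FPKM, which tests fewer genes, gave 10 for BMEC against BMS in vivo, 10 for BMEC in vivo against culture, 6 for the in vivo interaction, 5 for BMEC with HSPC against alone, 11 for BMEC against BMS alone and 10 for BMEC against BMS with HSPC. With all 8 groups, which share 1 spread, the counts were 15 for BMEC against BMS in culture, 17 for the in vivo interaction, 2 for BMS with HSPC against alone and 7 for the HSPC interaction. The count between BMEC and BMS in culture also moved without the 3 libraries that carry Xist, a setting chosen after seeing the data. It leaves BMEC culture 1 library assumed to vary like the other groups, so its count is not read. Leaving out 1 library gave 7 to 11 for BMEC against BMS in culture, 12 to 16 in vivo, 15 to 16 for BMEC and 12 to 18 for BMS in vivo against culture, and 4 to 15 for the in vivo interaction. It gave 7 to 11 for BMEC and 5 to 10 for BMS with HSPC against alone, 9 to 14 for the HSPC interaction, 16 to 17 for BMEC against BMS alone and 17 to 19 with HSPC. Of 1879 values of the 130 called differences, 1753 kept direction and call, 125 lost the call and 1 turned its direction: Cxcl16 between BMEC and BMS alone, 0.02 after quantile normalization. The cause was not tested.

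Over all genes, the fit of 8 groups called 1852 genes in place of 6813 for HSPC in BMEC, 3591 in place of 8551 for HSPC in BMS, 2276 in place of 7996 for the HSPC interaction and 7654 in place of 5000 for the in vivo interaction. The compared groups alone gave 2801 in place of 5765 between BMEC and BMS in culture. Equal replicate numbers were not labelled as a pairing, and same-numbered libraries correlated at -0.11 to 0.13. A replicate block gave 10, 16, 16, 17, 11, 9, 6, 11, 18 and 17 called genes, in place of 9, 16, 16, 18, 11, 8, 6, 11, 18 and 17, in the order culture, in vivo, BMEC and BMS in vivo against culture, that interaction, BMEC and BMS with HSPC, that interaction, alone and with HSPC. Of 3 libraries, 0 to 2 correlated best with their own number. Depth is unknown, and 3 libraries a group limit what can be called.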
